A study of Mus musculus with 3 samples.

Results

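Tnf, Lta and Ltb encode the cytokines TNF, lymphotoxin alpha and lymphotoxin beta, and lie side by side in the class III region of the mouse major histocompatibility complex. They were taken by gene symbol as the members of this locus, and are 3 of the 55536 genes in the GENCODE M21 annotation. RNA bound to chromatin was sequenced after removal of ribosomal RNA from macrophages grown from the bone marrow of C57BL/6J mice. All 3 libraries, biological replicates 1 to 3 by their labels, belonged to 1 group: a first exposure to 100 ng/ml lipid A (12 h), a washout (12 h), and a second exposure at the same dose (90 min). Toll-like receptor 4 senses lipopolysaccharide of bacteria through its lipid A moiety. Unstimulated cells, cells stimulated once and other cell fractions were not analysed here, so no value below is a response to lipid A. The labels do not tie the replicates to separate mice or cultures, so the spread between them may be technical.

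TNF is made as a trimer on the cell surface and cut loose by a protease, and its signals through TNF receptors drive inflammation or cell death. Lymphotoxin alpha is secreted as a trimer that binds the TNF receptors, or joins lymphotoxin beta at the membrane in a complex that binds the lymphotoxin beta receptor and shapes lymphoid tissue. Macrophages are a main source of TNF, while the lymphotoxins are known chiefly from lymphocytes and innate lymphoid cells. Transcription of Tnf is switched on quickly through NF-kappa B, and its mature mRNA carries a 3′ AU-rich element by which RNA-binding proteins control its decay and translation.

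Tnf was among the most abundant protein-coding RNAs on chromatin, while Ltb was barely above 1 TPM (a length-corrected transcript level, relative to all features of a library) and Lta was below it. On mm10 the genes span 10913 bases. Tnf (ENSMUSG00000024401.14) is on the minus strand at chr17:35199381-35202007, and Lta (ENSMUSG00000024402.5) lies upstream of it on the same strand at chr17:35203165-35205351. The 3′ end of Lta is separated from the Tnf start by 1157 bases. Ltb (ENSMUSG00000024399.5) is on the plus strand at chr17:35194439-35196320, so Ltb and Tnf point at each other with 3060 bases between their 3′ ends. Library depth was 12671700, 21747001 and 16915406 total expected counts in replicates 1, 2 and 3, from 1 µg, 250 ng and 500 ng of starting RNA. Protein-coding genes, which in all counts, ranks and shares here are those of the nuclear genome, held 34.1%, 27.4% and 29.4% of TPM in these libraries.

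The promoters are shown because the genes share a locus and differ so much in level. Each run is from RefSeq on GRCm38.p6, from 250 bases before to 50 bases after the RefSeq start, and capitals mark matches to the motifs named below, on either strand. The windows are chr17:35201958-35202257 (minus strand) for Tnf, chr17:35205302-35205601 (minus strand) for Lta and chr17:35194257-35194556 (plus strand) for Ltb. The RefSeq start of Ltb lies downstream of the GENCODE start.
Tnf promoter: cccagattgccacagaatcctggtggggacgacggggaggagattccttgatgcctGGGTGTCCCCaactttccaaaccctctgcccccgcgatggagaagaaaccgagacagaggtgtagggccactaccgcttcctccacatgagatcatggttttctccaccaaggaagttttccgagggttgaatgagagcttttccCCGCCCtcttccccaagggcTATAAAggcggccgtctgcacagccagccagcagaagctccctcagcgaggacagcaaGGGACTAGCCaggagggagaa
Lta promoter: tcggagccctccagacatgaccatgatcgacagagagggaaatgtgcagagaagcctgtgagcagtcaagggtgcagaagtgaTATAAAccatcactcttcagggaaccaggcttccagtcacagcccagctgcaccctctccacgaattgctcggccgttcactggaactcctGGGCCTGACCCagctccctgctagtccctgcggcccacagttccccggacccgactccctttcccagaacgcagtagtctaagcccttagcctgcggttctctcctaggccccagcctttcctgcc
Ltb promoter: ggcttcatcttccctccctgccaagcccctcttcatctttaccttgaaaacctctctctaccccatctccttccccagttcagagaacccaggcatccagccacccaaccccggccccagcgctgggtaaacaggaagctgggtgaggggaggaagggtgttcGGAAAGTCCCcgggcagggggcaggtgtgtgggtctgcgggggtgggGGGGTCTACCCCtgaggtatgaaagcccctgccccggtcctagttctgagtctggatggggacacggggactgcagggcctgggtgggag

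A kappa B-like match, GGGNNNNNCC, was in the promoter of all 3 genes and in 50.8% of 32851 RefSeq promoters of this length, so it does not set them apart. The TATA box letters TATAAA were in the Tnf window, starting at position -29 from the start site, in the Lta window, starting at position -167, and in 13.6% of all promoters. The GC box letters GGGCGG were in the Tnf window alone among the members and in 35.7% of all promoters. The AP-1 letters TGANTCA, in 7.81% of all promoters, matched none of these 3 windows. Some kappa B-like matches overlap one another, as in the longer capital run of the Ltb promoter. A match describes letters and is not a measured binding site.

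Tnf held 7846, 10718 and 9907 expected counts in replicates 1, 2 and 3. Its levels were 504 TPM (95% Poisson interval 493 to 515), 396 TPM (389 to 404) and 474 TPM (465 to 483), and ranked 67, 57 and 41 among 22015 protein-coding genes. These intervals cover counting error only and do not overlap, so the libraries differed by more than counting. The coefficient of variation of Tnf was 12.1%, and a smaller one was found for 158 of the 613 protein-coding genes whose mean reached 100 TPM (25.8%), with a median of 20.9% over the 613. Replicate 1 was the highest library in TPM, but with TPM rescaled to protein-coding genes replicate 3 was, at 1615 against 1478 and 1449, and the coefficient of variation was 5.86%. On that scale the median over the 613 genes was lower too, at 16.4%, and 63 of them (10.3%) had a smaller one than Tnf.

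Ltb held 22, 39 and 20 expected counts, which gave 1.82 TPM (95% Poisson interval 1.14 to 2.76), 1.99 TPM (1.42 to 2.72) and 1.23 TPM (0.751 to 1.90). The intervals of all libraries overlap, and a difference between replicates was not tested. The mean was 1.68 ± 0.399 TPM (SD, n = 3), against a median over all protein-coding genes of 0.353 ± 0.00577 TPM, and 57.4% to 61.4% of protein-coding genes lay below Ltb. Its level was thus above the median of all protein-coding genes, but close to the limit of 1 TPM, which 41.1% of them reached in every library.

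Lta held 6, 12 and 2 expected counts, which gave 0.47 TPM (0.172 to 1.02), 0.55 TPM (0.284 to 0.961) and 0.12 TPM (0.0145 to 0.433). The 2 counts of replicate 3 are under the floor of 3 counts that a count of 0 allows, which is 0.18 TPM for Lta in that library. The mean was 0.38 ± 0.229 TPM, and between 44.9% and 52.5% of protein-coding genes lay below Lta. The members therefore ranked Tnf, Ltb, Lta in each library. Among the members, 2 of 3 reached 1 TPM in every library, as did 41.1% of all protein-coding genes.

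**Figure D1:**
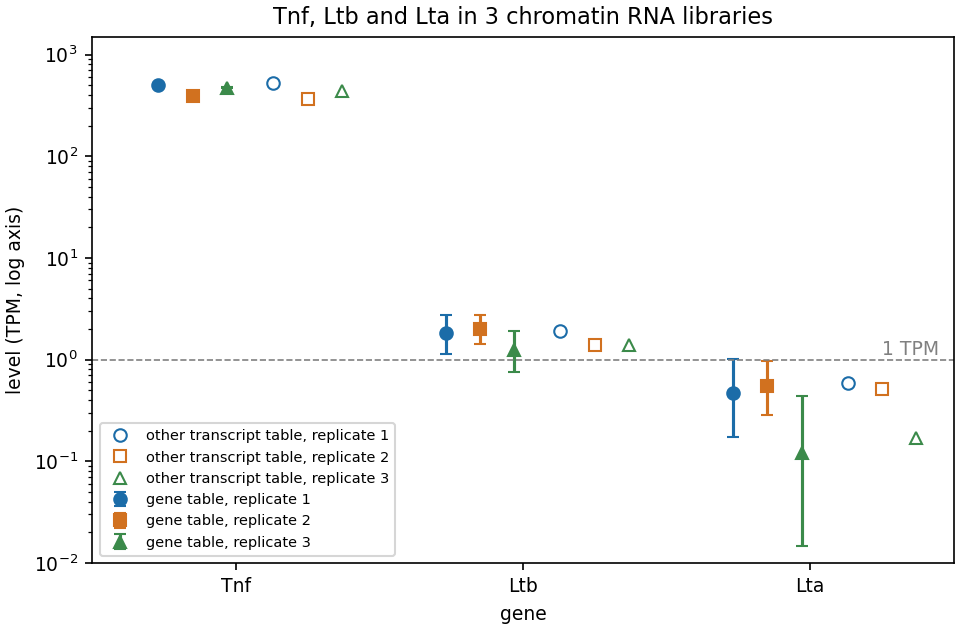
Level of Tnf, Ltb and Lta in TPM on a log axis, 1 point per library. Filled symbols are from the gene table with 95% Poisson intervals and open symbols are gene sums of the other transcript table; Tnf stands between 362 and 528 TPM, Ltb just above the dashed line at 1 TPM and Lta below it.

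Differences between members were taken within each library on the log2(TPM + 1) scale, which understates the differences of low genes. Tnf exceeded Ltb by 7.48, 7.05 and 7.73, a mean of 7.42 ± 0.34 (SD, n = 3). As a ratio of TPM this was 277 (95% counting interval 183 to 442), 199 (146 to 280) and 385 (249 to 631). Tnf was higher in 3 of 3 libraries, and the exact two-sided sign-flip permutation test gave p = 0.25 (0.25 after Benjamini-Hochberg adjustment over 3 pairs), the smallest p that 3 libraries allow.

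Tnf exceeded Lta by 8.38 ± 0.36 on the same scale, in 3 of 3 libraries. The TPM ratios were 1072 (492 to 2923), 721 (412 to 1395) and 3950 (1093 to 32624), and the last rests on 2 counts of Lta. Ltb exceeded Lta by 0.96 ± 0.03, with TPM ratios of 3.87 (1.52 to 11.7), 3.62 (1.86 to 7.59) and 10.3 (2.49 to 90.4), each interval above 1. With 0.1 TPM added in place of 1 this difference was 2.01 ± 0.51, so its small spread depends on the scale. The exact sign-flip test gave p = 0.25 for both of these pairs too, so no pair could pass a threshold. The order was the same in the transcript table made from the reads, with 442 ± 83.1 TPM for Tnf, 1.57 ± 0.314 for Ltb and 0.424 for Lta. Expected counts of the members were whole numbers, to 2 decimals, in 9 of 9 values, as when no read is divided with another gene.

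The locus was next compared with its surroundings. Within 100 kb of the members the annotation has 31 genes, 19 of them protein-coding, which leaves 16 protein-coding neighbours. Tnf ranked 2 of these 19 in every library, and Lta and Ltb lay among the low genes. The median neighbour had 17.7, 12.3 and 16.0 TPM, and Tnf exceeded that median on the log2(TPM + 1) scale by 4.76, 4.90 and 4.81, a mean of 4.82 ± 0.07 (SD, n = 3; exact sign-flip p = 0.25). The size of this gap depends on the window, since it was 3.64 within 50 kb (8 neighbours) and 6.65 within 200 kb (30 neighbours). It also depends on the quantification, as it was 3.84 within 100 kb in the other transcript table. Of the expected counts on the 19 genes, Tnf held 33.8%, 25.5% and 28.6%, and of those on the 3 members 99.6%, 99.5% and 99.8%.

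The gene above Tnf was H2-D1, a classical class I antigen-presenting molecule, at 660 ± 36.4 TPM. Its level is uncertain because class I genes have near-identical relatives, and it was 463 TPM in the other transcript table, against 442 TPM for Tnf. Next came Ddx39b, an RNA helicase of mRNA export, at 152 ± 37.5 TPM, Prrc2a, a large RNA-associated protein, at 146 ± 19.3 TPM, and Bag6, a chaperone of membrane proteins, at 84.2 ± 7.48 TPM. Ddx39b and Prrc2a overlap in their library values.

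The nearest protein-coding genes on the other side of Ltb, Lst1 and Aif1, are expressed in myeloid cells. Aif1, the calcium-binding protein IBA1, had 47.8, 66.8 and 47.6 TPM, and Lst1, a leukocyte membrane protein, had 22.7, 33.8 and 17.3 TPM. Both were higher in the transcript table made from reads, at 144 and 128 TPM. Both exceeded Ltb in all 3 libraries in TPM. On the far side of Lta, Nfkbil1, an I kappa B-like protein, had 17.6, 11.0 and 14.6 TPM. Lta and Ltb thus lay below the closest protein-coding gene outside the locus on either side.

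The remaining neighbours ranged from 38.7 to 0 TPM. Abhd16a, a lipid hydrolase, had 38.7 TPM, and Csnk2b, the regulatory subunit of casein kinase, had 17.4 TPM. D17H6S53E had 8.02 TPM, Atp6v1g2, a proton pump subunit, 5.96 TPM, Gm16181 4.95 TPM and Gpank1 4.25 TPM. Below 1 TPM were Apom, an apolipoprotein, at 0.543 and Ly6g5b at 0.203 TPM, while Ly6g5c held 0 counts. Several were higher in the other transcript table, with Abhd16a at 74.2, Gm16181 at 29.4, Atp6v1g2 at 18.2 and Apom at 2.38 TPM. While 41.1% of all protein-coding genes reached 1 TPM in every library of the gene table, 13 of the 16 neighbours did. Some of them overlap a gene of the opposite strand, and Nfkbil1 overlaps Gm16181 and Atp6v1g2 and cannot be told apart from it with certainty, since the strand setting of the counting is not known here. The members overlap no gene but 2 microRNA genes, Mir6973a in the first intron of Ltb and Mir6974 in the second intron of Lta. Both had 0 counts and an effective length of 0 in the gene table, so their 0 there measures nothing. In the other transcript table Mir6973a had a mean of 6.82 TPM and Mir6974 of 0 TPM.

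**Figure D2:**
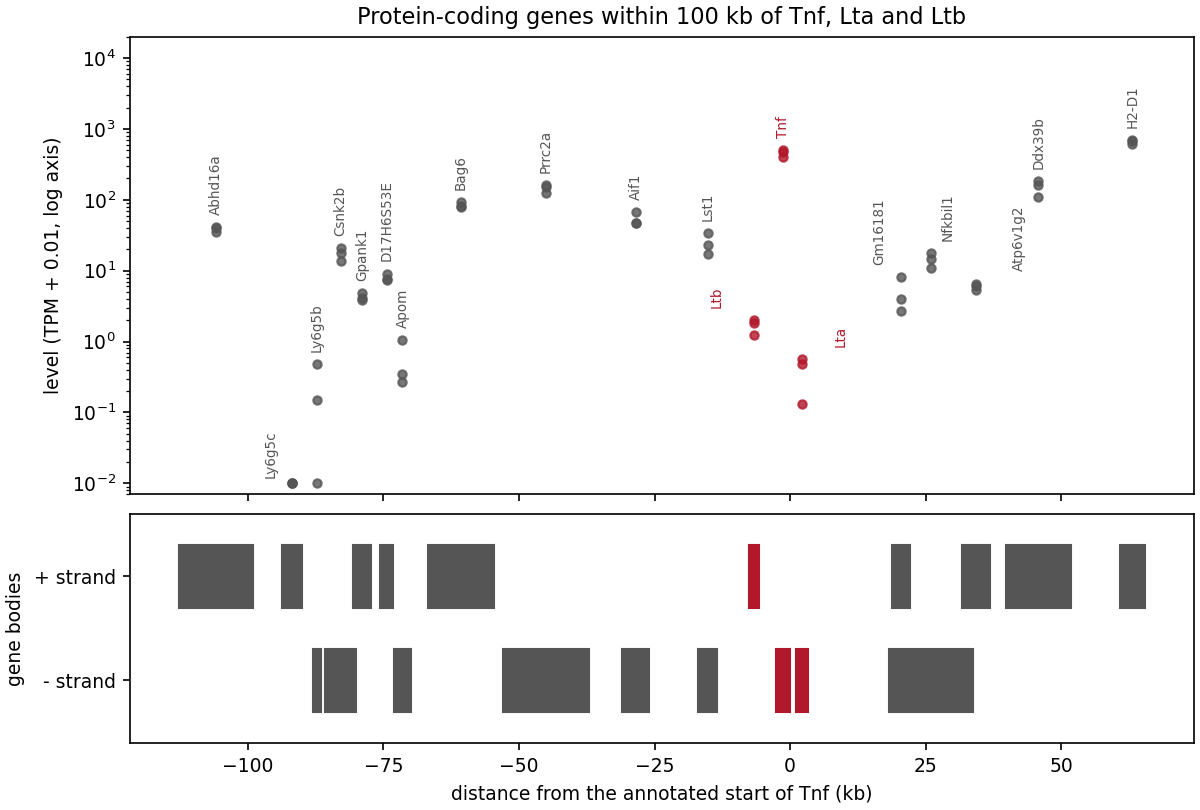
Protein-coding genes within 100 kb of Tnf, Lta and Ltb, by distance from the annotated Tnf start in kb; the upper panel gives TPM + 0.01 on a log axis with 1 point per library, the lower panel the gene bodies on each strand, members in red. Tnf and H2-D1 are the highest genes, and Lta and Ltb, on either side of Tnf, are among the lowest.

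The transcript tables were used to see which annotated forms of each gene were counted. Tnf has 2 annotated transcripts, both protein-coding. Tnf-201 keeps all 4 exons and Tnf-202 skips exon 3, a coding exon of 48 bases at chr17:35200858-35200905. The skipped exon, in capitals with 15 bases of each neighbouring exon, and the junction that skipping would make are shown because only reads over them tell the forms apart within the coding region.
Tnf exon 3: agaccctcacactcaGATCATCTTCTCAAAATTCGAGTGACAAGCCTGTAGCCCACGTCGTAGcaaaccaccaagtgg
Tnf-202 junction: agaccctcacactcacaaaccaccaagtgg
Tnf-201 took 100% of the Tnf abundance in all 3 libraries, and Tnf-202 had 0 expected counts. In the other transcript table Tnf-202 had 5.06 estimated counts in replicate 1, or 0.0442% of the gene, and 0 in replicates 2 and 3. The 3 introns of Tnf, of 516, 178 and 294 bases, belong to no annotated transcript. The deposited tables thus count reads on Tnf exons and give no level for RNA in which these introns remain. The same holds for Lta, whose 3 introns of 496, 83 and 225 bases are outside its only transcript, Lta-201.

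Ltb is the member with an intron-retaining form in the annotation. Ltb-202 keeps intron 2, 338 bases at chr17:35195366-35195703, and the ends of that intron are shown, 30 bases of intron in capitals and 30 of exon in lower case, because these boundaries separate spliced from unspliced RNA.
Ltb intron 2 start (chr17:35195336-35195395, plus strand): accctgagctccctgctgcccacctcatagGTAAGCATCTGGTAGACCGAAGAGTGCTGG
Ltb intron 2 end (chr17:35195674-35195733, plus strand): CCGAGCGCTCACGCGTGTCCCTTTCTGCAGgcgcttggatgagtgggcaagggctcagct
Ltb-202 had 14.6, 25.3 and 17.96 expected counts, and 1.11, 1.12 and 1.02 TPM. It took 60.7%, 56.0% and 82.9% of the Ltb abundance, a mean of 66.5 ± 14.4% (SD, n = 3). Ltb-201, a spliced coding form, took 39.3% and 26% in replicates 1 and 2 and was listed at 0 in replicate 3. Ltb-203, also coding, was listed at 0 in replicate 1 and took 18% and 17.1% in replicates 2 and 3.

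Reads on the intron-retaining transcript were thus a large part of the few Ltb reads in each library. Over the 5881 protein-coding genes with such a transcript and at least 1 TPM in every library, the median share was 48.1 ± 2.41%, so a high share was usual in this fraction. That of Ltb was above the share of 75.3% of these genes, as a mean over libraries. In the other transcript table Ltb-202 took 41.7%, 54.9% and 50.6%, a mean of 49.1 ± 6.71%, against a median of 45.9 ± 1.15%. There the share of Ltb was above that of 54.9% of the genes. With 20 to 39 counts per library, the division between the forms of Ltb is an estimate, and the tables differed most in replicate 3, where Ltb-202 took 82.9% in one and 50.6% in the other, and in the share of Ltb-203 in replicate 1, listed at 0 in one and 39.6% in the other.

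**Figure D3:**
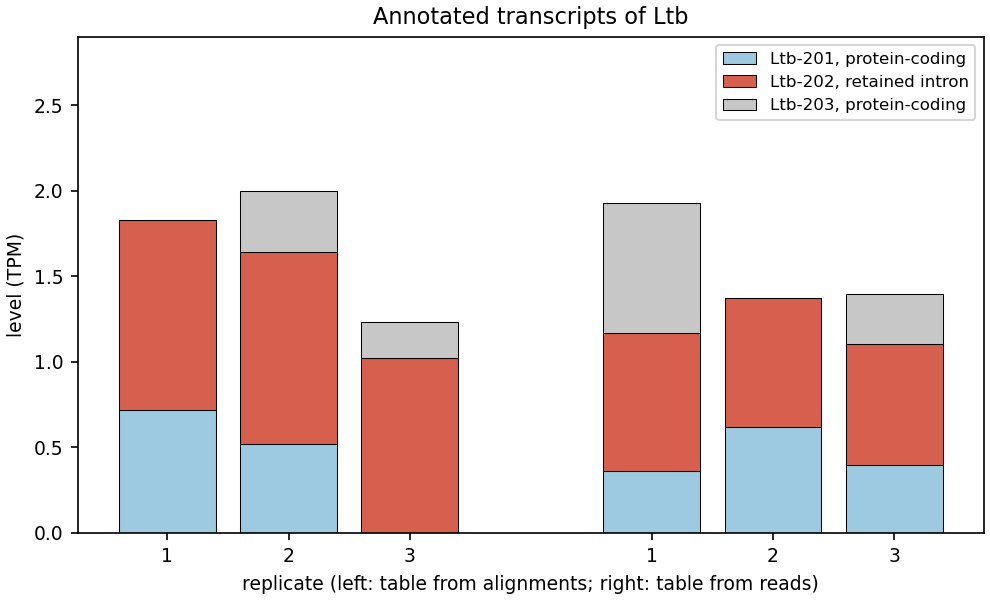
Stacked TPM of the 3 annotated Ltb transcripts in each replicate, in the table made from alignments (left) and the table made from reads (right). The intron-retaining Ltb-202 (red) holds about the same TPM, 1.02 to 1.12, in all libraries on the left, and the 2 coding forms trade places between libraries and tables.

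The members also differ in the 3′ untranslated region of their mRNA, where the letters ATTTA are the core of AU-rich elements. The 3′ untranslated region of Tnf, 764 bases, has 8 copies, that of Lta, 572 bases, has 3, and that of Ltb, 174 bases, has none. In Tnf, 5 copies fall within 30 bases at chr17:35199676-35199705, on the minus strand in exon 4, shown as the stretch densest in the letters, with each ATTTA in capitals.
Tnf AU-rich element: ATTTAttATTTATTTAttATTTATTTAttt
At least as many copies in 30 bases are found in 57 of 20846 genes with a 3′ untranslated region, or 0.273%. These counts describe the annotated sequence. RNA levels on chromatin, as given here, hold no measure of decay.

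TNF and the lymphotoxins belong to a family of 18 ligands, most of which act as trimers on the cell surface. Of these, 7 reached 1 TPM in every library (38.9%), near the 41.1% of all protein-coding genes. Tnf held 79.0%, 88.8% and 82.1% of the summed family TPM, a mean of 83.3 ± 4.99% (SD, n = 3). The next were Tnfsf9, the 4-1BB ligand, with 55.1, 25.7 and 68.8 TPM, and Tnfsf15, the ligand TL1A, with 60.6, 12.0 and 21.2 TPM. Both were lowest in replicate 2, their library values overlap, and every value lay below every value of Tnf.

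Of the other detected ligands, Tnfsf13 (APRIL) had 3.88 TPM, Tnfsf12 (TWEAK) 3.82 TPM and Tnfsf10 (TRAIL) 2.19 TPM. Ltb followed them and its library values overlap those of Tnfsf10. Tnfsf13b (BAFF) had 1.05 TPM, Tnfsf4 (OX40 ligand) 0.983 TPM and Tnfsf8 (CD30 ligand) 0.563 TPM, each below 1 TPM in at least 1 library. Lta stood next, ahead of Tnfsf18 (GITR ligand) at 0.133, Tnfsf14 (LIGHT) at 0.107 and Eda (ectodysplasin) at 0.0167 TPM, with at most 8 counts in any library. Cd40lg, Fasl, Cd70 and Tnfsf11 (RANKL) had 0 counts in all libraries. A count of 0 allows up to 0.434 TPM for Cd70 in replicate 1, the widest of these limits. In the other transcript table Tnfsf12 was at 10.9, Eda at 1.79 and Cd70 at 0.405 TPM.

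**Figure D4:**
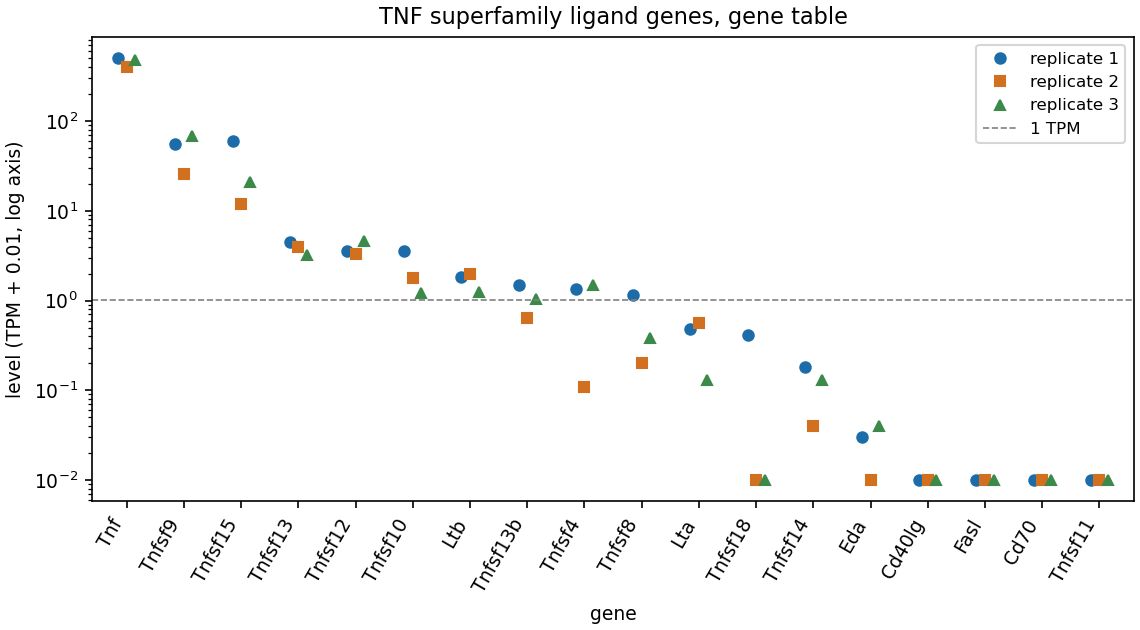
Level of the 18 TNF superfamily ligand genes, TPM + 0.01 on a log axis, ordered by their mean, with 1 symbol per library. Tnf lies above all other ligands in each library, Ltb is the seventh gene, just above the dashed line at 1 TPM, and 4 genes sit at the bottom with 0 counts.

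The receptors of the members were all detected, 4 of 4, against 41.1% of all protein-coding genes. Tnfrsf1b (TNFR2) had 191 ± 19.3 TPM and Tnfrsf1a (TNFR1) had 20.7 ± 1.90 TPM. Tnfrsf14 (HVEM), which binds LIGHT and lymphotoxin alpha, had 104 ± 32.4 TPM, while the transcript table made from reads gave 249. Ltbr, the receptor of the lymphotoxin complex, had 7.30, 12.7 and 54.8 TPM from 121, 255 and 226 expected counts. The table gives Ltbr an effective length of 1527, 1023 and 274 bases in these libraries, so the high TPM of replicate 3 did not go with a higher count. Both lymphotoxin genes were lower than Ltbr in every library.

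Genes that release TNF from the membrane were detected in 4 of 6 cases, against 41.1% of all protein-coding genes. The protease Adam17 had 100.5 ± 31.7 TPM, its partner Rhbdf2 (iRhom2) 116 TPM and Frmd8, which stabilises that complex, 9.37 TPM. The related Rhbdf1 had 0.39 TPM. The inhibitor Timp3 was lowest at 0.0767 TPM, but 14.4 TPM in the other transcript table. Of 19 genes acting just below the receptors, all reached 1 TPM in every library, beside the same 41.1%. Their median was 30.7 ± 5.83 TPM. The ubiquitin ligase Birc3 (cIAP2) was highest at 267 ± 52.3 TPM, followed by Nfkb2, the precursor of p52, at 137 TPM and Rnf31 (HOIP) at 92.0 TPM, and the adaptor Fadd was lowest at 1.14 TPM. Tnf was above each of these genes by its mean, but in the other transcript table Birc3, at 507 TPM, was above Tnf.

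All 12 RNA-binding regulators of Tnf mRNA were detected, with a median of 38.6 ± 2.67 TPM. Cnot1, the scaffold of the deadenylase, had 83.9 TPM, Hnrnpd (AUF1) 68.9 TPM and Rc3h2 (Roquin-2) 60.4 TPM, and Zfp36l1 was lowest at 3.79 TPM. Of 16 transcription factors linked to the locus 15 were detected, with a median of 24.1 ± 2.17 TPM. Nfkb1 stood out at 570, 322 and 487 TPM, a range that holds every library value of Tnf. Rel had 69.3 TPM, Spi1 (PU.1) 61.8 TPM and Ets1, the lowest, 0.717 TPM. In the other transcript table Spi1, at 199 TPM, was above Rel, at 57.8 TPM. So were Irf5, at 145, Litaf, at 95.6, Rela, at 76.1, and Irf8, at 75.4 TPM. Among the RNA-binding regulators Zc3h12a, at 80.8 TPM, was above Rc3h2, at 63.6 TPM, there. These lists hold many widely expressed genes, and their counts are given beside the 41.1% of all protein-coding genes as a description only.

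**Figure D5:**
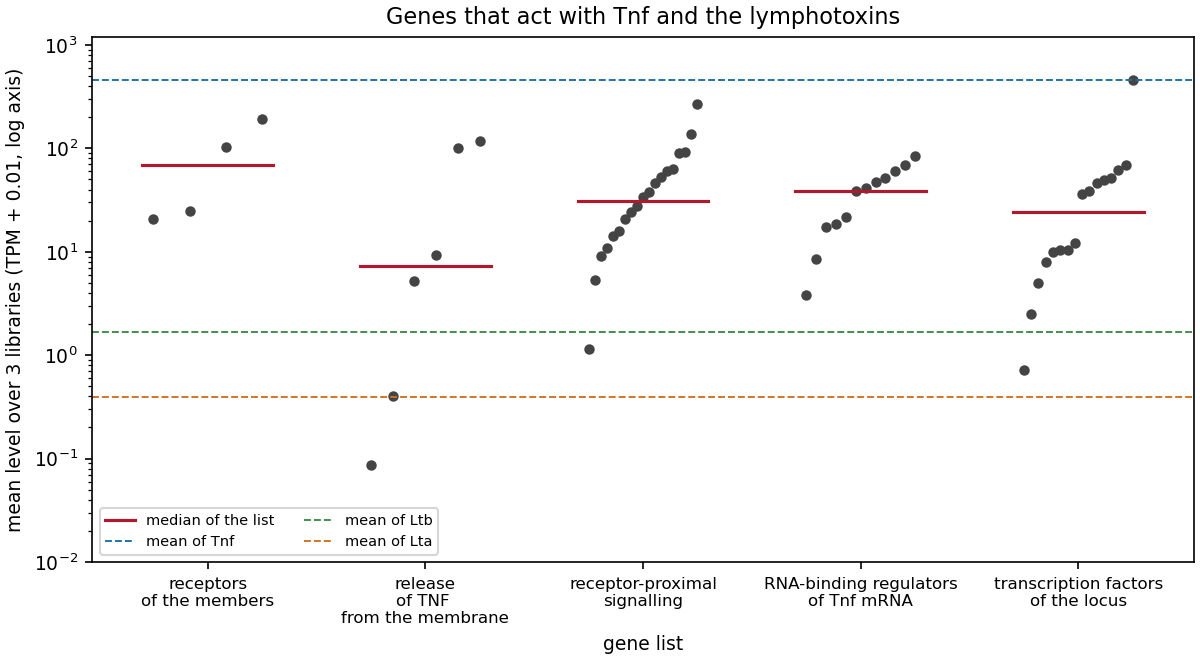
Mean level over 3 libraries of each gene in 5 lists that act with the members, TPM + 0.01 on a log axis, with the list median as a bar and the means of Tnf, Ltb and Lta as dashed lines. The mean of Tnf lies at that of Nfkb1, the highest gene of all lists, and only Fadd, Rhbdf1, Timp3 and Ets1 lie below Ltb.

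Markers of the cell types known for lymphotoxin were read beside the low Ltb and Lta counts. Over all protein-coding genes, 41.1% reached 1 TPM in every library. All 8 macrophage markers were detected, led by Adgre1 (F4/80) at 422 TPM, and their sum was 791 to 988 TPM. Of 7 T cell markers only Cd4 reached 1 TPM in every library, at 1.81 TPM, and the list summed to 1.89 to 2.41 TPM. The defining Cd3e, Cd3d and Cd3g had 0 counts, although Cd3d had 16.3 TPM in the other transcript table. None of 6 B cell markers was detected, their sum was 0.03 to 0.24 TPM with Ighm highest at 0.05 TPM, and Pax5 had 0 counts. Of 6 markers of natural killer and innate lymphoid cells, Il7r had 15.3, 3.86 and 6.09 TPM and the other 5 had 0 counts. In the other transcript table, T cell markers without Cd3d had means of up to 2.88 TPM. B cell markers had means of up to 1.01 TPM there, and the natural killer and innate lymphoid list without Il7r up to 1.13 TPM.

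Other blood lineages were as low in the gene table. In the other transcript table the means of single markers reached 1.81 TPM for dendritic cells, 1.21 for neutrophils and 0.189 for mast cells. The values that follow are from the gene table. Dendritic cell markers summed to 0.88 to 1.37 TPM with Zbtb46 highest at 0.73 TPM, neutrophil markers to at most 0.34 TPM with S100a9 highest at 0.183 TPM, and all 4 mast cell markers had 0 counts. Whether the few Ltb and Lta reads came from macrophages or from other cells was not tested. In a bulk sample, fewer cells of a type and less RNA per cell cannot be told apart.

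The protein-coding genes with the most similar levels were found by the distance of log2(TPM + 1) over the 3 libraries among 22014 genes. For Tnf these were Srrm2, a splicing scaffold, at a distance of 0.15 and 443 ± 26.8 TPM, Luc7l2, a splicing factor, at 0.165 and 438 TPM, and Clec2d, a lectin-like receptor ligand, at 0.178 and 459 ± 29.6 TPM. Each overlaps Tnf in its library values. For Ltb they were Ncapg, a condensin subunit, at 0.0717 and 1.68 TPM, Il1rl2, the receptor of interleukin-36, at 0.10 and 1.62 TPM, and Kif9, a kinesin, at 0.108 and 1.77 TPM. Lta was not matched, as it was below 1 TPM. With 3 libraries of 1 condition this likeness is one of level and of small differences between libraries.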

How the data were processed

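Chromatin RNA of 3 libraries in 1 group was used. Per the file headers and labels, the authors made from alignments, and deposited, tables of genes and of transcripts with expected counts (estimated, need not be whole), TPM and effective lengths in bases. They also deposited another transcript table with estimated counts and TPM, made from the reads. All use mm10 and GENCODE M21. Not given in the sources used here: aligner, quantifiers, strand setting. TPM is relative to all features of a library, so it moves with what noncoding features hold.

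Rows that are no annotated gene (26345, with 1.34%, 0.292% and 0.416% of counts) were left out of library sizes. A gene was detected at 1 TPM in every library. Differences used log2(TPM + 1) within libraries and exact two-sided sign-flip permutation tests, which with 3 libraries cannot go below 0.25. Counting intervals are 95% exact Poisson, the floor is 3 counts, and both cover counting error only. Intervals of TPM ratios are from the exact binomial split of 2 counts. The replicates are not 1 library deposited more than once (chi-square per degree of freedom 34.1 to 175.5). TMM factors came from edgeR 4.0.16 and other size factors from DESeq2 1.42.0 in R 4.3.3, on rounded counts, and were tested on simulated data. Other steps used Python 3.11.15, numpy 2.4.6, pandas 2.3.3, SciPy 1.17.1 and matplotlib 3.10.9.

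Members and gene lists were chosen with earlier results of these data known. Named genes are the members, all ligands and receptors, the 3 highest and the lowest of each other list, the protein-coding genes within 100 kb and genes overlapping a member, the 3 nearest genes by level, and the highest marker of each cell type. Other genes named for a 0 count or a difference between tables were picked after their values were seen. Promoters are from a RefSeq table on GRCm38.p6, and other sequences from the GENCODE M21 transcripts. One marker gene is not reported by name here.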

Additional observations from a re-analysis of the deposited data

How the results depend on the processing

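Of 91 recomputed values, 5 moved and 0 reversed. The other 86 are differences between genes that kept their sign, levels and shares that stayed within the spread between replicates, and counts that stayed close to the reported one. With TPM rescaled to protein-coding genes the means became 1514 for Tnf, 5.60 for Ltb and 1.27 for Lta, with Lta at 1.38, 2.01 and 0.409 in replicates 1, 2 and 3, so still below 1 in replicate 3. The intron-retaining share of Ltb was 49.1% in the other transcript table. At a limit of 5 TPM, 3 ligands were detected instead of 7, and without replicate 2 there were 9. Over the alternatives the log2 difference ranged from 7.27 to 8.03 for Tnf against Ltb, 8.21 to 10.04 for Tnf against Lta, 0.86 to 2.01 for Ltb against Lta and 3.64 to 6.65 for Tnf against its neighbours. These ranges reach beyond the spread between replicates, so only the sign was kept, and many alternatives could not change it. Another pseudocount or a rescaling acts alike on the genes compared within a library. Leaving out a replicate cannot reverse a difference that was positive in 3 of 3 libraries. The other transcript table could have reversed the sign and did not. It gave 7.42 for Tnf against Ltb, 8.28 for Tnf against Lta, 0.86 for Ltb against Lta and 3.84 for Tnf against neighbours. The exact p was 0.25, or 0.5 with a replicate left out, so these tests say nothing about stability. No paired analysis was possible because there is 1 group and no other group to pair it with by replicate number; the differences between genes were themselves taken within libraries. Intron-retaining shares of Tnf and Lta were not run, as neither has such a transcript. Depth limits Lta most, at 2 to 12 counts.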
